A study of Mus musculus with 36 samples.

Results

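The kidney comparison set the 4 libraries of kidneys from 12-week-old mice against the 4 of kidneys from 8-week-old mice, which are 8 of the 36 libraries of the series and were chosen by their labels. The series followed heart, kidney and liver of mice aged 8, 10 or 12 weeks, the passage from late adolescence to young adulthood, with 4 libraries per organ and age. All mice were wild-type (WT) male C57BL/6NCrl animals, a substrain of the inbred C57BL/6 line, without treatment. They were bought at a single age and allotted at random to the age at which they were killed, so no mouse was sampled at more than a single age. Blood was drawn under ketamine and xylazine, the mice were then killed by cervical dislocation and the organs were frozen at once, and the labels give neither the hour of collection nor the cage. Whole kidney was homogenised, so cortex, medulla, vessels, immune cells and any fat left on the capsule were read together, and a lower level can come from fewer cells of a type or from less RNA per cell, which cannot be told apart here.

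The kidney filters blood through the podocytes of the glomerulus and recovers salt, glucose, phosphate and amino acids along the tubule. Its proximal tubule is strongly sex-dependent in mice, and testosterone induces a set of transporters, lipases and cytochrome P450 enzymes there as males mature. The organ also holds resident macrophages and dendritic cells and gathers lymphocytes and plasma cells with age. Its circadian clock and its response to adrenal glucocorticoids set the daily course of many transport genes.

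Levels are given as CPM, the read pairs on a gene scaled to the library's size with edgeR's TMM factors, and 4 values in a row are those of replicates 1 to 4 in that order. The libraries of both ages held between 21323021 and 32670858 counted pairs. A gene was tested when its mean count was 10 or more in either age, which left 17424 of the 78239 genes in the files. All 34 listed markers of the kidney's segments were tested and present, from podocytes to the collecting duct, and their summed level was 36812 to 41606 CPM in the younger and 39348 to 44786 CPM in the older mice.

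The comparison of 12 with 8 weeks asked which kidney genes differ between adolescence and young adulthood. Past an adjusted p under 0.05 in edgeR's quasi-likelihood test, 7 genes rose (0.0402% of those tested) and 3 fell (0.0172%), and 10 of 17424 genes (0.0574%) passed in all. *Cyp2d12*, *Dgkg*, *Col15a1*, *Neurog2*, *Irf1* and the mitochondrial *mt-Co2* and *mt-Co3* rose, and *Polr3e*, *Slc22a19* and *Ddit4* fell. With a log2 fold change beyond 1 as well, 4 genes were higher (0.023%) and 1 was lower (0.00574%). The list of calls was short although 2055 genes (11.8%) had an unadjusted p under 0.05, of which 1191 were higher (6.84%) and 864 lower (4.96%) at 12 weeks. Between the 4 libraries of each age, 1163 genes (6.67%) did not overlap, of which 638 (3.66%) were higher and 525 (3.01%) lower at 12 weeks. The median log2 fold change over all genes was 0.0019, and 50.6% of genes lay above 0.

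The choice of test moved these counts. DESeq2 on the same 17424 genes called 83 higher and 50 lower, and edgeR without the count minimum called 332 and 181 of 42077 genes. All 10 of the genes above passed in both, which adds no support for them, since both settings called many more genes. Without the count minimum edgeR also called *Synpr* (adjusted p = 2.02e-07), whose libraries overlap between ages. When the 10-week libraries were left out of the fit, *Neurog2* (adjusted p = 0.0687), *Irf1* (0.0708), *Slc22a19* (0.0867) and *Ddit4* (0.0765) no longer passed in edgeR. Only *mt-Co2*, *mt-Co3*, *Cyp2d12* and *Dgkg* stayed past the threshold in edgeR when any 1 of the 8 libraries was left out. On the counts of 1 strand alone, *mt-Co3*, *Dgkg*, *Col15a1* and *Slc22a19* (adjusted p = 0.0623 each) and *Irf1* (0.0825) were not called in edgeR.

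**Figure D1:**
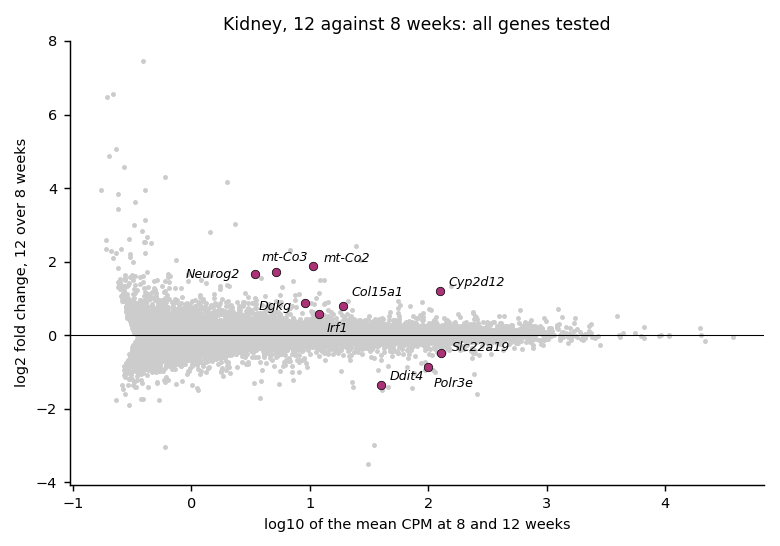
Log2 fold change of each of the 17424 genes tested in kidney (vertical axis, 12 over 8 weeks) against the log10 of its mean CPM over both ages (horizontal axis), with the 10 genes past an adjusted p under 0.05 in edgeR as named dark points. Called genes lie between -1.36 and 1.89 on the log2 scale, most grey points beyond 2 are at the left edge, where counts are few, and the lowest grey point, at -3.51 on the vertical axis, is *Cyp4a14*, whose 8-week mean a single library carried.

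*Cyp2d12*, a cytochrome P450 of the Cyp2d family that oxidises drugs and endogenous compounds, rose by a factor of 2.29. It stood at 67.5, 93.3, 87.3 and 55.9 CPM at 8 weeks and at 175, 144, 216 and 161 CPM at 12 weeks. The lowest library of 12 weeks lay well above the highest of 8 weeks. On the log2 scale it rose by 1.19 ± 0.15 (SE, n = 4 against 4; adjusted p = 0.00619 in edgeR), from a mean of 76.0 ± 17.3 to 174 ± 30.5 CPM (SD). The gene lies at chr15:82439246-82444604 (GRCm39, forward strand) in a cluster of near-identical Cyp2d genes, between which pairs can be lost or shared. *Cyp2d9* of the same cluster, named after its values were seen, had a mean of 211 ± 29.1 CPM and then of 297 ± 22.6 CPM without overlap, and its log2 fold change of 0.49 ± 0.09 did not pass (edgeR, adjusted p = 0.089).

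*Dgkg*, which encodes diacylglycerol kinase gamma, an enzyme that turns the lipid messenger diacylglycerol into phosphatidic acid, was at 7.63, 6.08, 6.69 and 5.53 CPM at 8 weeks. At 12 weeks it was at 12.1, 13.3, 11.8 and 10.2 CPM. The ages did not overlap, and the gene rose by 0.87 ± 0.11 on the log2 scale (adjusted p = 0.00619 in edgeR), while on the counts of 1 strand alone the value was 0.83 and not called (0.0623). At 10 weeks *Dgkg* still stood at 6.39 to 7.22 CPM, inside the range of 8 weeks.

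*Col15a1*, the alpha chain of collagen XV of basement membranes around vessels and tubules, had 13.5, 15.3, 13.7 and 13.4 CPM at 8 weeks and 23.3, 24.5, 28.8 and 19.7 CPM at 12 weeks. It rose by 0.78 ± 0.10 on the log2 scale (edgeR, adjusted p = 0.00859), and was already at 19.1 to 22.9 CPM at 10 weeks. The call was lost without 8-week replicate 3 (adjusted p = 0.065) or replicate 4 (0.0506) and on the counts of 1 strand (0.0623). It was the only one of the 36 listed matrix genes, all tested, with an unadjusted p under 0.05 in either direction. Over all genes, 6.84% were higher and 4.96% lower at that p. The matrix list had a median log2 fold change of -0.04, with 15 genes above 0 and 21 below.

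*Neurog2*, a proneural transcription factor with no established role in the adult kidney, was among the low genes of the tissue. It had 1.65, 1.49, 1.55 and 1.88 CPM at 8 weeks and 5.50, 7.80, 3.04 and 4.49 CPM at 12 weeks. Every 12-week library lay above every 8-week library, while the spread within 12 weeks was wide (mean 5.21 ± 2.00 CPM, against 1.64 ± 0.17 CPM). The log2 fold change was 1.66 ± 0.24 (edgeR, adjusted p = 0.022). The call was lost without 8-week replicate 1 (adjusted p = 0.0595), 2 (0.09), 3 (0.105) or 4 (0.0613) and without 12-week replicate 1 (0.0821).

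*Polr3e*, a subunit of RNA polymerase III, which transcribes transfer RNAs and the 5S ribosomal RNA, was at 117, 139, 146 and 111 CPM at 8 weeks and at 71.0, 56.9, 79.7 and 75.7 CPM at 12 weeks. The ages were far apart, and it fell by 0.86 on the log2 scale (SE 0.13; edgeR, adjusted p = 0.0315). The level at 10 weeks, 57.6 to 84.4 CPM, was that of 12 weeks, and the fall from 8 to 10 weeks of 0.80 also passed (adjusted p = 0.0139 in edgeR). Both comparisons share the 8-week libraries. The call at 12 weeks was lost without 8-week replicate 1 (adjusted p = 0.0541), 2 (0.105) or 3 (0.105) or 12-week replicate 1 (0.109) or 2 (0.0634).

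*Slc22a19*, an organic anion transporter of the proximal tubule, was at 148, 137, 143 and 174 CPM at 8 weeks and at 96.0, 112, 103 and 117 CPM at 12 weeks. Its fall was modest but tight, -0.49 ± 0.08 on the log2 scale (edgeR, adjusted p = 0.0315), with 118 to 128 CPM at 10 weeks between both ages. The adjusted p was between 0.0613 and 0.109 without 8-week replicate 1, 3 or 4 or 12-week replicate 1, 2 or 3.

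**Figure D2:**
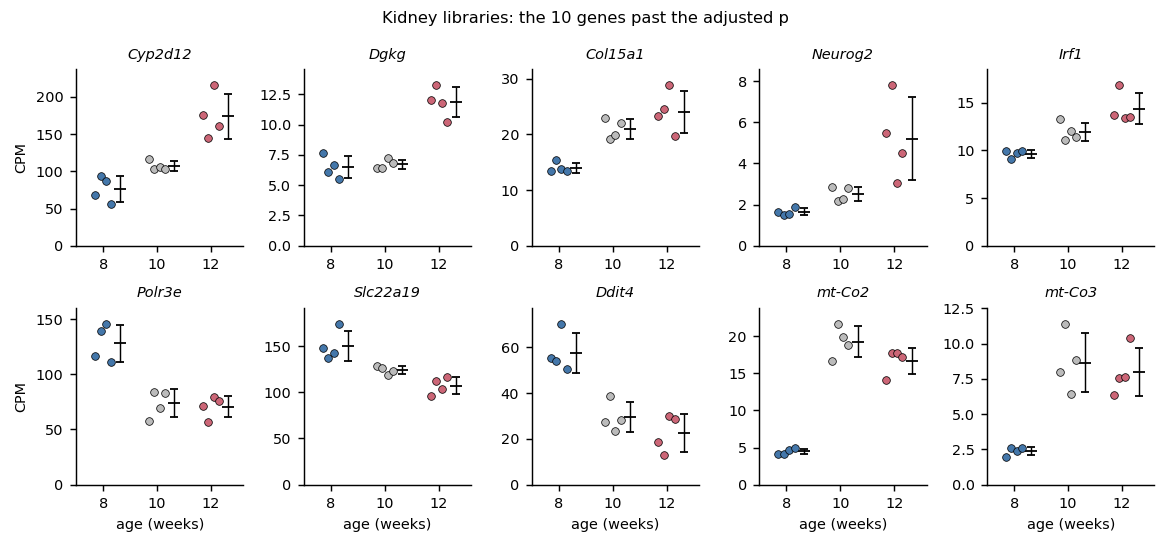
CPM of the 10 genes past the adjusted p in each kidney library (points; 4 per age, with mean and SD beside them) at 8, 10 and 12 weeks, each panel with an axis from 0. In every panel the 4 libraries of 12 weeks lie wholly above or wholly below the 4 of 8 weeks, and *mt-Co2* and *mt-Co3* already reach their later level at 10 weeks.

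The mitochondrial genes *mt-Co2* and *mt-Co3* encode subunits of cytochrome c oxidase and had the smallest p-values of the comparison. *mt-Co2* was at 4.13, 4.15, 4.66 and 4.92 CPM at 8 weeks and at 14.1, 17.7, 17.8 and 17.2 CPM at 12 weeks. *mt-Co3* was at 1.98, 2.62, 2.38 and 2.59 CPM at 8 weeks and at 6.35, 7.56, 7.64 and 10.4 CPM at 12 weeks. The ages were far apart in both genes, by a factor of 3.72 and 3.32, with log2 fold changes of 1.89 ± 0.11 (edgeR, adjusted p = 1.2e-06) and 1.73 ± 0.19 (adjusted p = 0.0033). On the counts of 1 strand alone they were 0.82 and 0.92, and the second was then not called (adjusted p = 0.0623 in edgeR).

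These levels are counted from a sequence that is nearly the same in a second place of the genome. The stretch from base 6390 to 11042 of the mitochondrial genome matched chr1:24650616-24655269 (GRCm39, reverse strand) over 4654 aligned bases at 99.936% identity in a blastn search, with 2 mismatches and 1 gap. The authors' counting took a pair only where its best place was unique, so a pair that fits both places equally well adds to no gene. All 684 bases of *mt-Co2*, 681 of *mt-Atp6* and 784 of *mt-Co3* lie inside the copied stretch and none of them differs from the copy. The differing positions are A6393T in *mt-Co1* and T9461C in *mt-Nd3*, counted on the mitochondrial genome with its base first, and an extra base in the copy at the transfer RNA gene *mt-Tr*. The sequences around the second mismatch are shown with that base in capitals. In the GRCm39 reference it is the only differing base in the protein genes from *mt-Co2* to *mt-Nd4l*. All of these comparisons are between reference sequences. Which base the mice of the substrain studied carry there was not tested, so whether it tells the places apart in these libraries is not known.
mt-Nd3 in the mitochondrial genome: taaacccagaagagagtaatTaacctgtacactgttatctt
its copy on chromosome 1: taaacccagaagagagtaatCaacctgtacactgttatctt

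In contrast, *mt-Co1*, of whose 1545 bases only 483 lie in the copied stretch, was at 34875 to 39871 CPM at 8 weeks and 33814 to 38806 CPM at 12 weeks, with a log2 fold change of -0.05 ± 0.08 (edgeR, adjusted p = 0.835). Of the 13 protein genes of the mitochondrial genome 11 were tested, 1 of them only through its count at 12 weeks, 7 lay above 0 and 4 below, and their median log2 fold change was 0.01. *mt-Atp6* stood at 1.65, 2.25, 2.38 and 2.10 CPM at 8 weeks and at 2.99, 4.09, 3.61 and 4.88 CPM at 12 weeks without overlap, and did not pass (log2 fold change 0.88 ± 0.18; edgeR, adjusted p = 0.109). On the nuclear side, *Gm28661*, a pseudogene inside the copy at chr1:24653966-24654646 that was named after its values were seen, had 9.33 to 11.1 CPM at 8 weeks and 21.9, 28, 27.3 and 92.6 CPM at 12 weeks (log2 fold change 2.06 ± 0.47; edgeR, adjusted p = 0.152). Other pseudogenes of the copy, also picked after their values were seen, did not overlap between ages. Their log2 fold changes were smaller, 0.57 to 0.79, and did not pass (edgeR, adjusted p between 0.109 and 0.197). In which of the 2 places the counted pairs arose was not tested. *Gm28661* is annotated as an unprocessed pseudogene, so it is not in the separate class of processed pseudogenes. Over all 224 processed pseudogenes tested, 15.6% had an unadjusted p under 0.05 and were higher at 12 weeks, against 7.07% of protein-coding genes, and 3.13% were lower, against 4.98%.

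*Irf1*, a transcription factor induced by interferon gamma, was the called gene among the listed interferon-stimulated genes. Interferons signal through STAT proteins and interferon regulatory factors, which bind the GAS and ISRE elements of genes for guanylate-binding proteins, immunity-related GTPases and antigen presentation. *Irf1* had 9.92, 9.06, 9.71 and 9.96 CPM at 8 weeks and 13.8, 16.8, 13.4 and 13.5 CPM at 12 weeks. The 8-week libraries lay within 1 CPM of each other, and all 12-week libraries lay above them. The log2 fold change was 0.57 ± 0.09 (edgeR, adjusted p = 0.0315). The adjusted p was 0.0632, 0.119, 0.105 or 0.08 without 8-week replicate 1, 2, 3 or 4, and 0.0821 or 0.0634 without 12-week replicate 1 or 2.

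Stretches of 30 bases, taken from the 250 bases before the RefSeq start of *Gbp2*, *Irf1* and *Igtp*, show the letters of such elements (RefSeq promoters, matched to GRCm39; forward strand). *Igtp* was chosen after its values were seen. Capitals mark the ISRE-like letters, GAAA, any 2 bases and GAAA again, or the GAS letters TTCNNNGAA, on either strand.
Gbp2, chr3:142326355-142326384: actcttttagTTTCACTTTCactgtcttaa
Irf1, chr11:53660741-53660770: acagcctgatTTCCCCGAAatgatgaggcc
Igtp, chr11:58090333-58090362: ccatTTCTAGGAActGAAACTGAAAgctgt

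The *Gbp2* stretch holds the ISRE-like letters on the reverse strand, the *Irf1* stretch holds a GAS, and *Igtp* holds both without overlap between them. Of the 36 listed interferon-stimulated genes 25 had a promoter in the table, and 17 of these (68%) held the ISRE-like letters, against 3.46% of 27025 genes. The GAS letters were in 9 of the 25 (36%) and in 8.13% of all genes. These are matches of letters and no measured sites.

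Of the 35 interferon-stimulated genes tested, 31 were higher at 12 weeks and 4 lower, and the median on the log2 scale was 0.25 beside 0.0019 for all genes. An unadjusted p under 0.05 was reached by 10 of the 35, all higher, against 6.84% of all genes, and 6 did not overlap between ages, against 3.66%. The summed level was 339 to 364 CPM at 8 weeks and 374 to 509 CPM at 12 weeks. *Gbp4*, a guanylate-binding protein of cell-autonomous defence, had 5.42, 5.76, 4.57 and 4.76 CPM at 8 weeks and 9.04, 10.2, 10.3 and 6.06 CPM at 12 weeks. *Gbp2*, another of the family, went from 6.48, 7.25, 8.09 and 6.79 CPM to 16.0, 17.2, 11.2 and 8.16 CPM. Neither overlapped between ages, and neither passed (log2 fold changes 0.80 ± 0.16 and 0.88 ± 0.19; edgeR, adjusted p = 0.109 and 0.124). *Iigp1*, an immunity-related GTPase, had 6.32 to 8.47 CPM at 8 weeks and 22.2, 22.3, 13.6 and 7.59 CPM at 12 weeks, so replicate 4 was inside the range of 8 weeks. *Igtp*, of the same GTPase family, had 8.13 to 11.6 CPM at 8 weeks and 22.2, 26.1, 13.1 and 12.6 CPM at 12 weeks. Replicates 1 and 2 were the high libraries for *Gbp2*, *Iigp1* and *Igtp*.

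The MHC genes present peptides to T cells, class I in nearly all cells and class II in antigen-presenting cells. All 10 class II genes tested were higher at 12 weeks, and the median on the log2 scale was 0.46, and 7 of them had an unadjusted p under 0.05 (6.84% of all genes were higher at that p, and 50.6% lay above 0). *H2-Eb1*, a class II beta chain, had 37.4, 40.1, 40.1 and 34.7 CPM at 8 weeks and 44.1, 74.4, 54.7 and 46.7 CPM at 12 weeks. *Cd74*, the invariant chain that escorts class II molecules, had 86.4 to 104 CPM and then 111, 183, 133 and 117 CPM. For both, all 12-week libraries were above those of 8 weeks, and neither passed (0.53 ± 0.13 and 0.50 ± 0.12; edgeR, adjusted p = 0.187 and 0.193). The class II transactivator *Ciita* had 3.03 to 3.59 CPM at 8 weeks and 4.87, 8.01, 4.52 and 3.88 CPM at 12 weeks. *H2-DMa*, which loads peptides on class II, had 3.34 to 4.56 CPM and then 4.84, 8.38, 5.38 and 4.67 CPM. Replicate 2 of 12 weeks was the highest library for each of these 4 genes.

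Of the 19 class I genes, 17 were higher at 12 weeks (50.6% of all genes), 10 with an unadjusted p under 0.05 (6.84% of all genes), and the median log2 fold change was 0.27. *H2-K1*, a classical heavy chain, had 82.3, 98.7, 103 and 99.3 CPM at 8 weeks and 111, 157, 128 and 112 CPM at 12 weeks. *H2-D1*, the other classical heavy chain, had 115 to 144 CPM and then 152 to 200 CPM. The immunoproteasome subunits *Psmb8* and *Psmb9* went from means of 2.38 and 3.42 CPM to 3.57 and 5.07 CPM. None of the 4 passed (log2 fold changes 0.35 to 0.58; edgeR, adjusted p between 0.214 and 0.276). The class I heavy chains are near-identical in sequence, so their counts may be split unevenly.

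**Figure D3:**
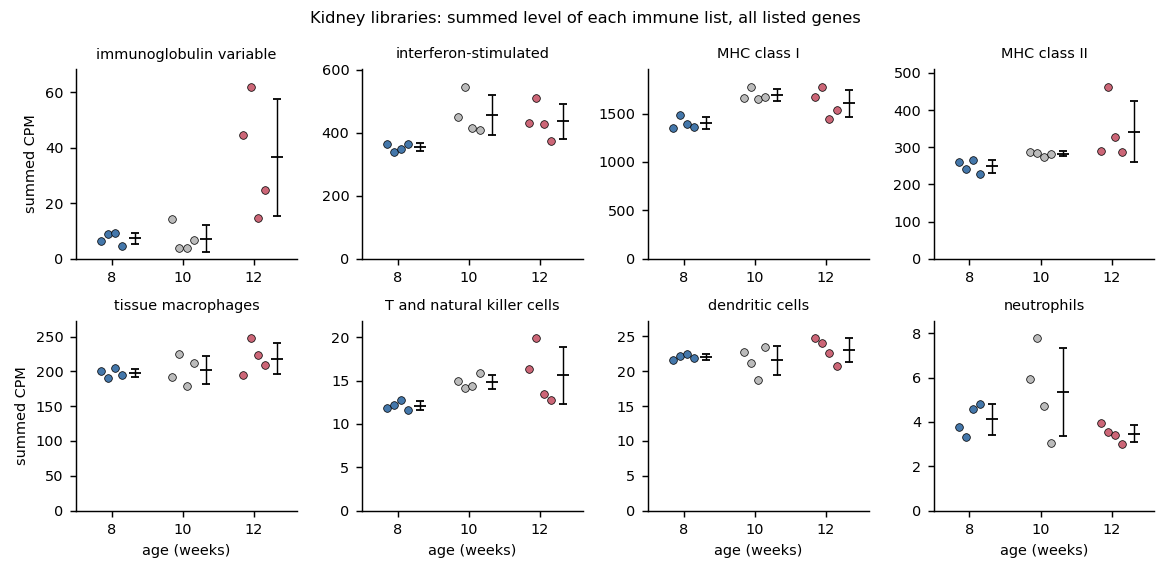
Summed CPM over all listed genes of 8 immune lists in each kidney library (points; 4 per age, with mean and SD beside them) at 8, 10 and 12 weeks, each panel with an axis from 0. Immunoglobulin variable genes reach 14.7 to 62.0 CPM at 12 weeks against 4.72 to 9.31 CPM at 8 weeks, the interferon and MHC class II sums do not overlap between these ages, and neutrophil genes overlap.

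The immunoglobulin genes, which mark plasma cells, were the widest difference in size. Over all 346 listed variable genes the summed level was 6.38, 8.77, 9.31 and 4.72 CPM at 8 weeks and 44.6, 62.0, 14.7 and 24.7 CPM at 12 weeks, a ratio of the means of 5. The ages did not overlap, and at 10 weeks the sum was 3.7 to 14.4 CPM. Of the 346 genes 175 had no count in any library of either age, and the 33 that were tested all passed the count minimum only through the 12-week libraries, so that they had to be higher and no count over them is given. Among these, *Igkv12-44* had 0.138, 0, 0.0634 and 0 CPM and then 1.15, 1.06, 0.411 and 0.428 CPM, and *Igkv1-117* had 0.0459 to 0.285 CPM and then 4.84, 7.49, 2.42 and 0.57 CPM. Variable genes are much alike, so which of them a pair is counted on is uncertain. *Igkc*, the constant gene of the kappa chain, had a total count of only 1 over all libraries of both ages. Kappa variable genes were counted all the same, and the reason was not tested.

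*Igha*, the constant chain of IgA, had 5.01, 8.90, 11.8 and 4.63 CPM at 8 weeks and 47.6, 71.5, 14.8 and 31.0 CPM at 12 weeks. *Jchain*, which joins IgA and IgM into polymers, had 2.57, 1.77, 3.36 and 1.42 CPM and then 13.9, 19.8, 4.15 and 7.20 CPM. Both were separate between ages but spread widely within 12 weeks, and neither passed (log2 fold changes 2.43 ± 0.51 and 2.31 ± 0.48; edgeR, adjusted p = 0.109 for both). *Ighm*, the chain of IgM, overlapped (2.69 to 3.86 CPM against 3.21, 5.59, 10.7 and 3.88 CPM), and its high library was replicate 3, the lowest of the 12-week libraries for *Igha*. The B-cell receptor subunit *Cd79b* was at 0.282 to 0.597 CPM and then at 0.499 to 0.944 CPM. In the summed level of the 28 listed B- and plasma-cell genes, 12-week replicate 3 (150 CPM) lay inside the range of 8 weeks, 146 to 164 CPM.

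Other immune cells were described by their whole lists. The 32 T- and natural killer-cell genes summed to 11.6 to 12.8 CPM at 8 weeks and to 16.3, 19.9, 13.5 and 12.7 CPM at 12 weeks, so replicate 4 overlapped. The cytotoxic granule gene *Nkg7* had 0.138 to 0.381 CPM and then 0.392 to 0.726 CPM, without overlap but near the limit of counting. The T-cell receptor subunit *Cd3d* had 0.0459 to 0.282 CPM and 0.164 to 0.715 CPM, with overlap. Of the 21 tested genes of this list, 9 passed the count minimum only through the 12-week libraries and so had to be higher. Genes as low as *Nkg7* and *Cd3d* are among or near these, so their direction is no evidence. The 20 listed macrophage genes summed to 190 to 204 CPM at 8 weeks and to 195 to 248 CPM at 12 weeks, with overlap. Of the 19 tested, 14 were higher and 5 lower, with a median of 0.15 and a minimum of -0.35 on the log2 scale. An unadjusted p under 0.05 was reached by 6, all higher (6.84% of all genes). *Csf1r*, the receptor for the macrophage growth factor, had 65.5 to 75.6 CPM at 8 weeks and 79.6, 94.9, 80.1 and 82.6 CPM at 12 weeks. The adaptor *Tyrobp* had 1.73 to 2.26 CPM and then 2.39 to 3.00 CPM, and *Adgre1*, which encodes F4/80, had 3.56 to 4.46 CPM and then 4.54, 6.88, 10.4 and 3.74 CPM. None of these passed (adjusted p of 0.219 or more in edgeR). Dendritic-cell genes summed to 21.6 to 22.5 CPM and to 20.7 to 24.7 CPM, and neutrophil genes to 3.34 to 4.81 CPM and to 2.99 to 3.96 CPM, both with overlap.

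*Cxcl9*, an interferon-induced chemokine that recruits T cells, had 0.459, 0.684, 1.08 and 0.615 CPM at 8 weeks and 2.96, 3.41, 1.48 and 1.1 CPM at 12 weeks. *Cxcl10*, a ligand of the same receptor, had 0.505 to 1.46 CPM and then 2.93, 3.54, 1.77 and 1.71 CPM, and *Cxcl16*, a membrane-bound chemokine, had 19.1 to 24.3 CPM and then 28.3 to 30.8 CPM. All 3 were without overlap, and none passed (log2 fold changes 1.64 ± 0.39, 1.26 ± 0.31 and 0.40 ± 0.09; edgeR, adjusted p = 0.176, 0.194 and 0.132). Of the 15 chemokines tested 13 were higher, 6 with an unadjusted p under 0.05 (6.84% of all genes), with a median of 0.11 on the log2 scale.

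*Ddit4*, which encodes REDD1, an inhibitor of mTORC1 induced by hypoxia, DNA damage and glucocorticoids, was the third of the genes that fell. It had 55.2, 54.2, 70.1 and 50.6 CPM at 8 weeks and 18.4, 13.1, 30.0 and 28.6 CPM at 12 weeks. The ages lay far apart, and the log2 fold change was -1.36 ± 0.22 (edgeR, adjusted p = 0.0467). At 10 weeks it was at 23.4 to 38.8 CPM. Without 8-week replicate 1, 2, 3 or 4 the adjusted p was 0.0671, 0.105, 0.166 or 0.08, and without 12-week replicate 1 or 2 it was 0.129 or 0.0536. It was 0.0571 with the mitochondrial genes left out.

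*Ddit4* was one of several stress, glucocorticoid and clock genes that were lower at 12 weeks. *Hmox1*, which breaks down heme and responds to oxidative stress, had 76.9 to 143 CPM at 8 weeks and 27.2, 30.7, 30.5 and 70.4 CPM at 12 weeks. *Plk3*, a stress-induced kinase, had 21.7, 34.4, 41.1 and 37.3 CPM and then 10.2, 6.92, 16.6 and 17.2 CPM, and *Gadd45g*, a growth arrest gene, had 49.3 to 74.5 CPM and then 49.7, 33.0, 26.4 and 21.9 CPM. *Hmox1* and *Plk3* did not overlap between ages, *Gadd45g* did, and none passed (log2 fold changes -1.43 ± 0.27, -1.41 ± 0.30 and -0.85 ± 0.24; edgeR, adjusted p = 0.102, 0.119 and 0.227). The list of 34 stress and growth arrest genes as a whole was not lower: of 32 tested, 20 lay above 0, and the median was 0.06 on the log2 scale. The 13 heat shock and endoplasmic reticulum genes in it had no member with an unadjusted p under 0.05 (0 higher and 0 lower). *Ddit4*, *Plk3*, *Hmox1* and *Gadd45g* were the 4 genes of the whole list below that p, all lower. Among all genes tested, 4.96% were lower and 6.84% higher at that p.

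Of 9 glucocorticoid-induced genes tested, 8 were lower at 12 weeks, 4 with an unadjusted p under 0.05 against 4.96% of all genes, and the median on the log2 scale was -0.42. *Sgk1*, the kinase that raises sodium channel activity in the collecting duct, had 150, 418, 460 and 510 CPM at 8 weeks and 129, 68.9, 126 and 183 CPM at 12 weeks. *Tsc22d3*, which encodes the glucocorticoid-induced leucine zipper GILZ, had 81.1, 175, 204 and 153 CPM and then 71.2, 51.7, 78.2 and 103 CPM. Replicate 1 was the low library of 8 weeks for both, so that *Sgk1* and *Tsc22d3* overlapped between ages. Their log2 fold changes of -1.60 ± 0.37 and -1.01 ± 0.27 did not pass (edgeR, adjusted p = 0.151 and 0.214). *Pdk4*, which shuts pyruvate out of oxidation in fasting, had 32.6, 39.9, 56.8 and 140 CPM and then 34.9, 34.0, 16.1 and 15.6 CPM, with replicate 4 as the high library of 8 weeks.

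Among the 22 clock genes, all tested, 5 were lower and 1 was higher with an unadjusted p under 0.05 (4.96% and 6.84% of all genes), and the median was -0.07 on the log2 scale. *Noct*, a rhythmic gene that encodes the phosphatase nocturnin, had 38.0, 77.0, 80.8 and 46.8 CPM at 8 weeks and 22.5, 11.2, 26.4 and 26.0 CPM at 12 weeks. *Per1*, a repressor of the clock, had 77.0, 106, 96.5 and 91.3 CPM and then 71.0, 43.1, 62.6 and 73.2 CPM, and *Per2*, its partner, had 58.6, 82.6, 91.8 and 95.0 CPM and then 57.0, 43.4, 46.0 and 67.9 CPM. *Nr1d1*, which encodes the repressor REV-ERB alpha, went the other way, from 54.9, 46.5, 32.1 and 33.8 CPM to 88.1, 78.2, 73.0 and 39.9 CPM. *Noct* and *Per1* did not overlap between ages, and *Per2* and *Nr1d1* did. None passed (log2 fold changes -1.5 ± 0.34, -0.57 ± 0.20, -0.62 ± 0.24 and 0.74 ± 0.26; edgeR, adjusted p between 0.141 and 0.345). *Cry1*, the other kind of repressor, was at 7.12 to 15.9 CPM and at 3.72, 4.19, 6.32 and 12.8 CPM, with overlap. The hour of collection is not in the labels, so the part of the hour in these values was not tested.

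**Figure D4:**
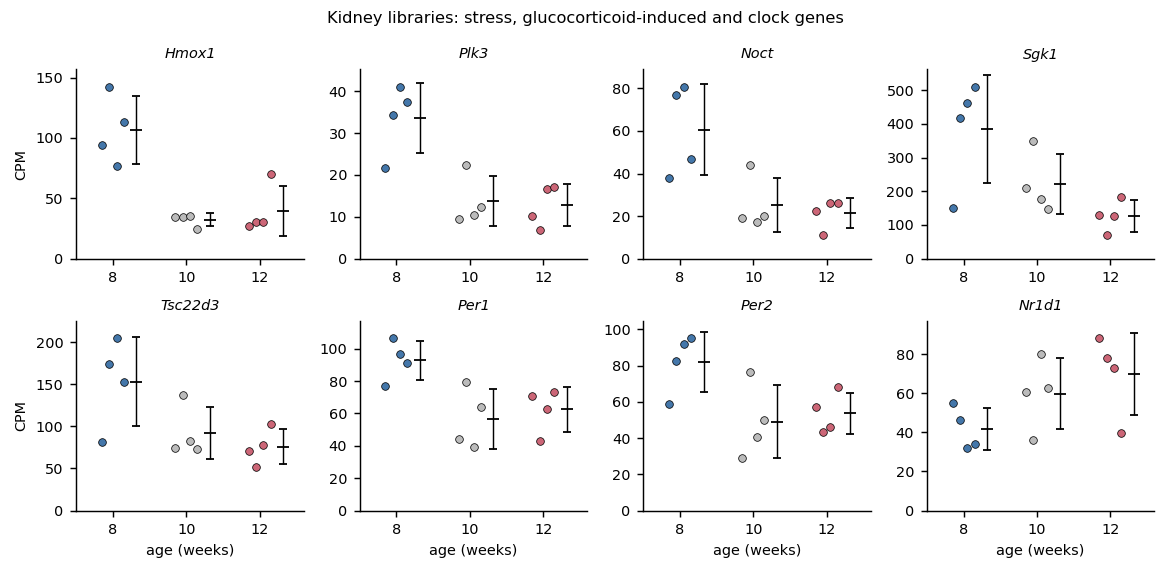
CPM of 8 stress, glucocorticoid-induced and clock genes in each kidney library (points; 4 per age, with mean and SD beside them) at 8, 10 and 12 weeks, each panel with an axis from 0. *Hmox1*, *Plk3*, *Noct* and *Per1* are lower in every 12-week library than in any 8-week library, *Sgk1* and *Tsc22d3* overlap through 8-week replicate 1, and *Nr1d1* is the gene with the higher mean at 12 weeks.

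Further genes were among the lower ones with the smallest p and no overlap. *Tob2*, an antiproliferative regulator of mRNA decay, had 105, 134, 151 and 98.9 CPM at 8 weeks and 62.4, 58.2, 74.1 and 84.6 CPM at 12 weeks. *Cebpb*, a transcription factor of stress and acute phase, had 18 to 26.8 CPM and then 9.98 to 15.1 CPM, and the arrestin-domain gene *Arrdc2* had 17.4 to 43.3 CPM and then 9.57 to 15 CPM. Their log2 fold changes of -0.81 ± 0.15, -0.97 ± 0.19 and -1.26 ± 0.26 did not pass (edgeR, adjusted p = 0.102, 0.109 and 0.109). Of 21 immediate early genes tested 13 were lower and 3 had an unadjusted p under 0.05 (4.96% of all genes were lower at that p), namely the phosphatase *Dusp1* (119 ± 20.3 to 83.7 ± 4.86 CPM), the mRNA-decay factor *Zfp36* (56.9 ± 8.49 to 42.7 ± 7 CPM) and *Klf2* (25.8 ± 5.56 to 17.4 ± 3.41 CPM), a factor of endothelium and quiescent T cells. *Camk1g*, a calcium-dependent kinase, had 2.92 to 3.58 CPM and then 1.48 to 2.07 CPM, *Sptlc3*, a subunit of the first enzyme of sphingolipid synthesis, 2.21 to 2.92 CPM and then 1.16 to 1.77 CPM, and *Dnajb13*, an axonemal gene, 0.523 to 1.2 CPM and then 0.17 to 0.328 CPM. Each of the 3 had an adjusted p of 0.102 in edgeR. *Dnajb13* passed the count minimum only through the 8-week libraries, so it had to be lower.

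No gene of the androgen-regulated list passed the adjusted p. The list does not hold the called genes *Cyp2d12* and *Slc22a19*, whose dependence on sex was not tested. Of 19 listed genes known as higher in male than in female mouse kidney, all tested, 16 were higher at 12 weeks, with 11 higher and 2 lower at an unadjusted p under 0.05 (6.84% and 4.96% of all genes), and the median on the log2 scale was 0.24. Of 8 genes known as lower in male kidney, 6 were lower, with 0 higher and 3 lower at that p. Over the whole list of 32 genes tested, 12 were higher and 5 lower at that p. *Cyp4a14*, 1 of the 3 lower genes of the male-lower set, had an 8-week mean that replicate 4 alone carried, at 184 CPM. *Srd5a2*, a steroid 5-alpha-reductase that makes dihydrotestosterone, had 6.94, 5.07, 9.20 and 4.21 CPM at 8 weeks and 16.1, 31.7, 8.33 and 15.8 CPM at 12 weeks. *Cyp4a12a*, an androgen-induced enzyme that makes 20-HETE from arachidonic acid, had 112, 77.9, 114 and 51.8 CPM and then 235, 357, 86.0 and 214 CPM. In both, replicate 2 was the high and replicate 3 the low library of 12 weeks, and replicate 3 lay inside the range of 8 weeks. The log2 fold changes of 1.5 ± 0.38 and 1.33 ± 0.35 did not pass (edgeR, adjusted p = 0.201 and 0.214). *Cyp4a12b*, of the same family as *Cyp4a12a* and named after its values were seen, went the other way with overlap. Its mean was 14.2 ± 5.68 CPM at 8 weeks and 9.67 ± 2.81 CPM at 12 weeks. The log2 fold change of -0.56 ± 0.39 did not pass (edgeR, adjusted p = 0.618).

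The lysosomal beta-glucuronidase *Gusb*, a classic androgen-responsive gene of mouse kidney, had the same highest and lowest library of 12 weeks, from 65.8, 67.3, 85.7 and 56.8 CPM to 96.0, 145, 69.2 and 96.3 CPM. *Slc7a13*, an amino acid transporter of the male proximal straight tubule, had 681 to 887 CPM at 8 weeks and 1008 to 1232 CPM at 12 weeks, and *Cyp2j13*, a P450 epoxygenase, had 250 to 370 CPM and then 397 to 546 CPM. The latter 2 did not overlap between ages. *Azgp1*, which encodes the lipid-mobilising zinc alpha-2 glycoprotein, had 56.1, 70.2, 76.2 and 42.8 CPM and then 120, 122, 95.3 and 124 CPM. The ages did not overlap, and the log2 fold change of 0.91 ± 0.16 did not pass (edgeR, adjusted p = 0.089). *Kap*, the kidney androgen-regulated protein of the proximal tubule, overlapped, with means of 18139 ± 2103 and 20959 ± 2445 CPM.

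Genes that handle lipids, sterols and foreign compounds lay on both sides. Of 51 listed genes, all tested, 20 were higher and 31 lower, and 7 and 10 of these had an unadjusted p under 0.05 (6.84% and 4.96% of all genes). Of the 51, 2 passed the count minimum only through the 12-week libraries. *Plin5*, which ties lipid droplets to mitochondria, had 5.88, 7.25, 6.28 and 11.9 CPM at 8 weeks and 3.02, 2.79, 2.83 and 3.88 CPM at 12 weeks. *Acot1*, an acyl-CoA thioesterase induced in fasting, had 66.9, 91.5, 90.7 and 159 CPM and then 45.2, 43.8, 54.2 and 57.8 CPM. Both were lower without overlap and did not pass (log2 fold changes -1.32 ± 0.23 and -1.03 ± 0.32; edgeR, adjusted p = 0.0839 and 0.267). Of the 14 genes of fatty acid activation and oxidation, 11 were lower, 6 with an unadjusted p under 0.05 (4.96% of all genes), and their summed level ran from 5610 to 7902 CPM in the younger and from 5480 to 6331 CPM in the older mice. *Cyp4a14*, a fatty acid hydroxylase induced through PPAR alpha, had 11.7, 17.9, 13.5 and 184 CPM at 8 weeks and 6.68, 3.37, 6.12 and 3.81 CPM at 12 weeks. It was chosen after its values were seen, did not overlap between ages and did not pass (log2 fold change -3.51 ± 1.34; edgeR, adjusted p = 0.338). Replicate 4 was the highest 8-week library for *Cyp4a14*, *Plin5*, *Acot1* and *Pdk4*, and 1 library of 10 weeks, replicate 1, was higher still for *Cyp4a14*, at 546 CPM. Without 8-week replicate 4 the log2 fold changes were -1.52 for *Cyp4a14*, -0.73 for *Acot1*, -0.78 for *Pdk4* and -1.04 for *Plin5*. *Ces1f*, a carboxylesterase, was higher without overlap (688 to 934 CPM against 951 to 1316 CPM), as was the sulfotransferase *Sult1c2* (66.9 to 78.3 CPM against 81.4 to 87.3 CPM).

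The genes that the study names for the kidney were chosen on these samples, and their direction is therefore no independent evidence. Besides those above they were *Synpr*, *Ptpn5*, *Sult2a3*, *Cidea*, *Lipo2*, *Acsbg1* and *Aldh1a3*. *Synpr*, a synaptic vesicle protein, varied widely, with 0, 0.0403, 1.78 and 0.0647 CPM at 8 weeks and 3.39, 11, 0.123 and 2.21 CPM at 12 weeks. Replicate 3 was the high library of 8 weeks and the low library of 12 weeks, where it lay inside the range of 8 weeks. *Aldh1a3*, a retinaldehyde dehydrogenase, had 16, 5.56, 5.23 and 1.59 CPM and then 47.2, 7.32, 17.4 and 5.52 CPM, with overlap. *Lipo2*, a lipase, had 0.291 to 2.00 CPM and then 3.05, 4.22, 2.05 and 2.49 CPM, and did not overlap. *Sult2a3*, a steroid sulfotransferase, *Acsbg1*, an acyl-CoA synthetase, and *Ptpn5*, a tyrosine phosphatase of neurons, had means of 0.145, 0.288 and 0.16 CPM and then 0.486, 0.694 and 0.504 CPM. The last 3 passed the count minimum only through the 12-week libraries, so that they had to be higher. None of these 6 genes passed the test (edgeR, adjusted p between 0.27 and 0.423). The synaptic vesicle gene *Syp* had 2.89 to 3.87 CPM and then 3.82 to 4.92 CPM, with overlap and log2 fold change 0.37 ± 0.13 (edgeR, adjusted p = 0.315).

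*Cidea*, a lipid droplet protein of brown fat, was carried by a single library at each age, with 0, 10.3, 0.0952 and 0.0971 CPM at 8 weeks and 5.29, 0.102, 0.205 and 0.285 CPM at 12 weeks. *Ucp1*, the uncoupling protein that defines brown fat, had 0.0459, 21.9, 0.0634 and 0.129 CPM and then 8.62, 0, 0.0821 and 0.0356 CPM. The high libraries, 8-week replicate 2 and 12-week replicate 1, were the same for both genes. The log2 fold change of *Cidea* was -0.74 ± 1.33 and turned to 4.35 without 8-week replicate 2 and was -3.68 without 12-week replicate 1, so that its direction rested on single libraries. The 14 listed fat genes summed to 138, 212, 143 and 146 CPM and to 173, 136, 144 and 139 CPM, and the part of fat in other genes' differences was not tested.

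**Figure D5:**
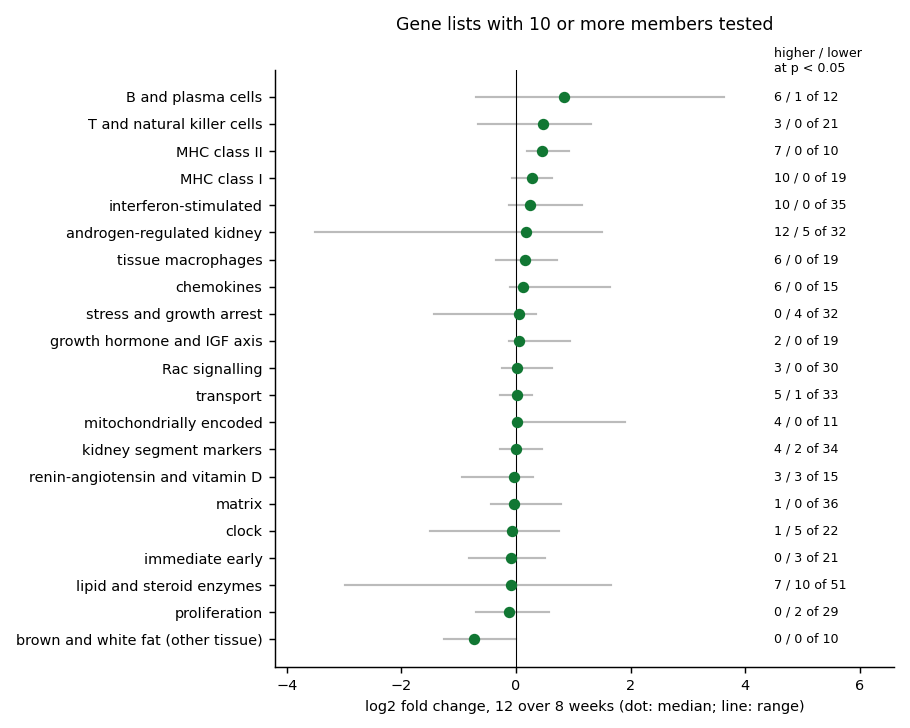
Median (dots) and range (lines) of the log2 fold change at 12 over 8 weeks for each gene list with 10 or more tested members other than immunoglobulin variable genes, with the counts of members higher and lower at an unadjusted p under 0.05 on the right and the median of all genes as a vertical line. MHC class II, MHC class I and interferon-stimulated genes lie right of the line with 7, 10 and 10 higher members at that p and 0 lower, while the transport, matrix and kidney segment lists lie within 0.05 of it. Of the B- and plasma-cell and the T- and natural killer-cell members, 3 of 12 and 9 of 21 passed the count minimum only through the 12-week libraries.

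No gene of the segment marker and transport lists, which do not hold *Slc22a19*, passed the adjusted p. Of the 34 segment markers, 18 were higher and 16 lower and the median on the log2 scale was 0.01, and 4 and 2 of them had an unadjusted p under 0.05 (6.84% and 4.96% of all genes). *Nphs1*, nephrin of the podocyte slit diaphragm, was at 23.6 to 25.9 CPM at 8 weeks and at 20.1 to 22.3 CPM at 12 weeks, without overlap but with a log2 fold change of only -0.22 ± 0.08 (edgeR, adjusted p = 0.336). Of 33 transport genes, all tested, 5 were higher and 1 lower at that p (the same shares of all genes apply), and none of the 16 for sodium and water was (0 and 0). The toxin extruder *Slc47a1* (760 ± 45.2 to 880 ± 64.1 CPM) and the phosphate transporter *Slc20a2* (52.7 ± 2.37 to 59.5 ± 3.41 CPM) were among the 5, both without overlap. In the renin-angiotensin system, the angiotensin receptor *Agtr1a* had 34.5 to 39.5 CPM and then 42.7 to 49.1 CPM, without overlap, and did not pass (log2 fold change 0.26 ± 0.07; edgeR, adjusted p = 0.214).

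Of 29 proliferation genes 18 were lower, 2 with an unadjusted p under 0.05 (4.96% of all genes), and the median was -0.12 on the log2 scale. *Ccnd1*, the cyclin of G1 entry, was one of them (213 ± 29.5 to 160 ± 26.7 CPM; log2 fold change -0.41 ± 0.11; edgeR, adjusted p = 0.219). Of 30 genes of Rac signalling, which steers the actin skeleton, 21 were higher and 3 had an unadjusted p under 0.05, all higher (6.84% of all genes), one being the blood-cell GTPase *Rac2* (1.18 ± 0.172 to 1.85 ± 0.39 CPM). In the growth hormone and IGF axis, *Irs2*, an adaptor of the insulin receptor, had 33.2 to 51.7 CPM and then 89.0, 128, 40.5 and 33.8 CPM, and *Igfbp1*, a fasting-induced binding protein, had 16.9, 6.92, 7.77 and 5.95 CPM and then 15.6, 16.0, 25.9 and 9.73 CPM. Both overlapped. Of the genes of other organs, *Apoa1*, an apolipoprotein of liver and gut, was at 0.551 to 1.01 CPM and at 0.212 to 0.534 CPM, and the adrenal list had 1 tested member of 14. *Apoa1* passed the count minimum only through the 8-week libraries, so it had to be lower.

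Age could also be read against the other organs, by testing whether the difference between 12 and 8 weeks itself differed. In 12334 genes kept in all 3 organs, it differed between kidney and heart for 61 (0.495%) and between kidney and liver for 138 (1.12%) in edgeR's interaction test. The test took all libraries as independent, although the study had fewer mice than libraries and organs of the same mouse were among them. Of the 10 kidney calls 6 could be tested there. The change of *mt-Co2* was 3.06 ± 0.56 higher in kidney than in heart on the log2 scale (edgeR, adjusted p = 0.00841) and that of *mt-Co3* 3.47 ± 0.59 higher (adjusted p = 0.00427), since both were lower at 12 weeks in heart (-1.17 and -1.74). Against liver neither differed by the test (1.85 ± 0.57 and 1.35 ± 0.62; adjusted p = 0.112 and 0.313 in edgeR). *Polr3e* differed from liver, by -0.91 ± 0.18 (edgeR, adjusted p = 0.0128), where its change was 0.05. The fall of *Ddit4* was not shown to be particular to kidney, with changes of -1.27 in heart and -2.02 in liver (adjusted p = 0.97 and 0.694 for the differences in edgeR).

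The 10-week kidneys placed the called genes in time. The comparison of 10 with 8 weeks, which shares the 8-week libraries, called 161 genes (0.924%) in edgeR, and 4 of the 10 genes were among them, *mt-Co2*, *mt-Co3*, *Col15a1* and *Polr3e*. For 8 of the 10, the mean at 10 weeks lay between those of 8 and 12 weeks. *mt-Co2* and *mt-Co3* were beyond it, at 19.2 ± 2.09 and 8.65 ± 2.07 CPM. *Cyp2d12* was at 103 to 117 CPM and *Neurog2* at 2.15 to 2.83 CPM at 10 weeks, in both genes above all 8-week libraries and below all 12-week libraries.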

How the data were processed

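PolyA RNA was sequenced by the authors in paired ends and passed through FastQC 0.11.9, cutadapt 4.2 and STAR 2.7.11b on GRCm39 with Ensembl annotation. The deposited counts are whole numbers of uniquely placed read pairs per gene, without normalization. The unstranded column was taken. Names came from GENCODE on the same build for 78168 of 78239 identifiers. Genes with a mean count of 10 or more at 8 or 12 weeks were fitted with edgeR 4.0.16 in R 4.3.3 (TMM, estimateDisp, glmQLFit, glmQLFTest) over the 12 kidney libraries with a mean per age, and the p-values were adjusted by Benjamini-Hochberg. The common coefficient of variation was 0.113. Differences between organs came from an interaction in all 36 libraries, fitted as independent without a term for the mouse. Alternatives were RLE factors, DESeq2 1.42.0, limma-voom (limma 3.58.1), other filters, fewer libraries, a replicate block, 1 strand, and each library left out.

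The members and gene lists were chosen with earlier results of these data known. Genes in the text come from those past the adjusted p of 0.05, those among the 10 smallest p per direction with an absolute log2 fold change over 0.5, no overlap and a given symbol, those named by the study for kidney, and those among the 4 smallest p or the highest level within a list's role, and not all of these are reported here. Genes named after their values were seen are marked. The mitochondrial copy was found with blastn 2.17.0. The test was tried on simulated data. The labels number the replicates without naming animals. Counting error and differences between mice both enter the SD.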

Additional observations from a re-analysis of the deposited data

Results flagged for a closer look

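In 19 of 180 groups of 4 libraries examined for the named genes, 1 library lay far from the other 3 by Dixon's criterion, where chance gives about 1 in 20 groups. At 12 weeks the distant library was replicate 1 for *mt-Co2* (low, 14.1 CPM), *Cidea* (high, 5.29 CPM) and *Ucp1* (high, 8.62 CPM). It was replicate 2 for *Irf1* (high, 16.8 CPM) and *Arrdc2* (low, 9.57 CPM), replicate 3 for *Azgp1* (low, 95.3 CPM), *Agtr1a* (high, 49.1 CPM) and *Apoa1* (high, 0.534 CPM), and replicate 4 for *Hmox1* (high, 70.4 CPM) and *Gm28661* (high, 92.6 CPM). At 8 weeks it was replicate 1 for *Igfbp1* (high, 16.9 CPM), replicate 2 for *Col15a1* (high, 15.3 CPM), *Cidea* (high, 10.3 CPM), *Ucp1* (high, 21.9 CPM) and *Rac2* (low, 0.926 CPM), replicate 3 for *Synpr* (high, 1.78 CPM), and replicate 4 for *Ces1f* (low, 688 CPM), *Irs2* (high, 51.7 CPM) and *Cyp4a14* (high, 184 CPM).

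The change from 8 to 12 weeks differed between organs in edgeR's interaction test for several named genes. Against heart, the kidney's log2 change was higher by 3.06 for *mt-Co2*, 3.47 for *mt-Co3*, 2.06 for *mt-Atp6* and 4.71 for the pseudogene *Gm28661* of the nuclear copy. Against liver, the difference was -0.91 for *Polr3e*, -1.40 for *Plin5*, -2.85 for *Hmox1* and -1.70 for *Acot1*.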

How the results depend on the processing

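Counts of called genes depended on the test and the filter. Past the adjusted p alone, the 7 higher and 3 lower genes became 83 and 50 with DESeq2, 332 and 181 without the count minimum, and 4 and 0 with the replicate number as a block (1142 and 840 at an unadjusted p under 0.05 in that edgeR fit). With the fold criterion, the 4 and 1 became 25 and 12 with DESeq2 and 80 and 28 without the minimum. The single lower gene was 0 with the replicate block, with the 8 libraries only (1183 higher and 1007 lower at an unadjusted p under 0.05) and with mitochondrial genes left out, where 2 were higher (1119 and 935). Leaving out 1 library gave 4 to 15 higher and 0 to 9 lower genes by adjusted p, and 3 to 9 and 0 to 4 with the fold. The largest of each came without 12-week replicate 4, and 0 lower by adjusted p came without 8-week replicate 3 (1045 higher and 794 lower at an unadjusted p under 0.05 in edgeR) or 12-week replicate 2 (709 and 636). Differences from heart, 61 genes, became 205 with DESeq2, 97 with limma-voom and 144 without the minimum, and 11 (without 12-week replicate 2) to 42 without 1 library. Differences from liver, 138, became 283 with DESeq2 and 525 without the minimum, and 38 (without 8-week replicate 4) to 86 without 1 library. The cause was not tested. Replicate numbers did not pair the libraries, since the deviations of same-numbered libraries correlated at -0.02, -0.17, -0.01 and 0.08, and with the block 4 of the 10 calls remained, those of *mt-Co2*, *mt-Co3*, *Cyp2d12* and *Dgkg*.

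Of 1609 values of named genes under the alternatives 1464 kept direction and side of the threshold, 95 passed newly, 47 no longer passed and 3 reversed. The reversed values were *Cidea* with limma-voom (1.09) and without 8-week replicate 2 (4.35) and *Ucp1* without that library (4.70), none of them past the adjusted p. Over all libraries left out in turn, *Cidea* ran from -3.68 to 4.35 and *Ucp1* from -7.04 to 4.70. With 4 libraries per age, the single immunoglobulin and T-cell genes under 1 CPM rest on few read pairs per library, which limits what can be said of each.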
